A study of Mus musculus with 6 samples.

Results

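The natriuretic peptide system was described in mouse heart through 12 probe sets of 9 genes, out of 45037 probe sets and 18193 named genes on Affymetrix whole-genome arrays once the maker's control probe sets were set aside. A probe set is the group of short probes whose signals are combined into 1 value for a transcript. The genes were the ligands Nppa, Nppb and Nppc, the receptors Npr1, Npr2 and Npr3, the prohormone proteases Corin and Furin, and the degrading enzyme Mme. Every probe set that the array annotation assigned to exactly 1 of these genes was taken, so that Npr3 had 3, Mme had 2 and each of the other 7 genes had 1. Of the 12, 10 probe sets of 7 genes lay above a brightness filter at log2 3.29, the median of all probe sets, and were tested. The probe sets of Nppc and Npr1 lay below it and are given as values.

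The series held 6 arrays of heart tissue RNA from C57BL/6 mice, 3 labelled as carrying the hAT1R transgene and 3 labelled Non transgenic. The transgene, hAT1R, encodes the human type 1 receptor for the pressor hormone angiotensin II. The non-transgenic mice were described as normal C57BL/6, and no treatment is named for either group. Age and sex were stated to be matched, but the ages, the promoter that drives the transgene, the founder line and any pooling of animals are not stated in the labels. The p-values therefore measure the spread between these arrays, part of which may be technical, and 3 arrays a group limit their precision.

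Natriuretic peptides are hormones that the heart makes and releases when its walls are stretched. Atrial and brain natriuretic peptide, encoded by Nppa and Nppb, come mainly from cardiac myocytes, and C-type natriuretic peptide, encoded by Nppc, comes mainly from endothelium and other tissues. Each is made as a longer prohormone that a protease must cut. The active peptides bind receptors that carry a guanylyl cyclase and raise cyclic GMP in the target cell, which relaxes vessels, promotes salt loss by the kidney and restrains growth of myocytes and fibroblasts. In adult mice both Nppa and Nppb are strongly expressed in atria, and a rise of Nppa in ventricle is a widely used sign of load.

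Several facts of the whole series touch these results. In the instrument records, the chip lot name of all 6 arrays carried the other group's word: "control" for the labelled transgenic arrays, "transgene" for the non-transgenic ones. The groups below follow the sample labels, "labelled transgenic" is written for that reason, and the typed names would turn every sign. Fluidics station 2 processed all labelled transgenic arrays together with the first non-transgenic one, station 3 processed the other 2, and every labelled transgenic array was scanned before any non-transgenic one. Xist, an RNA of the inactive X, ran from log2 9.48 to 9.69 on labelled transgenic arrays 1 and 3 and non-transgenic array 2, and from 2.49 to 3.01 on the other 3 arrays. Eif2s3y, a gene of the Y chromosome, went the other way, from 2.63 to 3.58 and from 9.17 to 9.25. The Xist-high arrays were thus 2 labelled transgenic and 1 non-transgenic, and the Xist-low arrays 1 and 2. By these RNAs sex was not balanced between the groups, although it was stated to be matched. For the actin control, the 3′ probe set exceeded the 5′ one, a gauge of RNA integrity, by log2 values that ran from 0.80 to 0.94 on labelled transgenic arrays and from 0.97 to 1.05 on the others. Median log2 signals ran from 3.25 to 3.31. Across all 22518 probe sets tested, limma's moderated test called 49, or 0.218%, at an adjusted p under 0.05, with 40 higher (0.178%) and 9 lower (0.04%) in the labelled transgenic arrays.

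Nppa and Nppb are next to each other among the protein-coding genes of chromosome 4, and both were higher in the labelled transgenic arrays, so the stretch before each gene's start is printed here for comparison. The sequences are the 250 bases before the start site in the RefSeq promoter table of build GRCm38.p6, where all 9 genes had an entry. The Nppa stretch is chr4:148000472-148000721 and the Nppb stretch chr4:147985650-147985899, both on the plus strand and written 5′ to 3′, with capitals marking the letters GATAA on either strand.
Nppa: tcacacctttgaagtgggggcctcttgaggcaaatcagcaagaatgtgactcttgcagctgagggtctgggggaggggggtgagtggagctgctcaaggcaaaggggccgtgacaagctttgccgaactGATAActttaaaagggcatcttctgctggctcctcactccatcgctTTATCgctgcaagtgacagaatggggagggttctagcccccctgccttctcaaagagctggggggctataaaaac
Nppb: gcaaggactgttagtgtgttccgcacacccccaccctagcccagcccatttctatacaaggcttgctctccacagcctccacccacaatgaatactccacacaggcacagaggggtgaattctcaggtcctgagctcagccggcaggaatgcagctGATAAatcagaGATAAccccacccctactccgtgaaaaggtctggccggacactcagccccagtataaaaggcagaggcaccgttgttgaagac

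Each stretch held 2 matches to GATAA, the core letters bound by GATA factors such as Gata4, a regulator of cardiac genes. In Nppa they began 121 and 75 bases before the start site, and in Nppb 94 and 83 bases before it. Of 32851 such stretches of the same length in the table, 22.6% held at least 1 match on either strand and 4.28% held more than 1. None of the stretches of the other 7 genes held a match. The core letters AAGTG, bound by the cardiac factor Nkx2-5, occurred at 239 and 65 bases before the Nppa start and not in the Nppb stretch. Of all stretches, 40.7% held at least 1 match on either strand and 10.2% held more than 1. Among the other 7 genes, 1 Furin stretch held 4 matches to AAGTG. The letters CATTCC, the MCAT element bound by TEAD factors, occurred once in the Nppb stretch, on the minus strand from 105 bases before the start, and not in that of Nppa (12.6% of all). Among the other 7 genes, 1 Mme stretch held 1 match to CATTCC. A CArG box, the element bound by Srf, was searched as CCWWWWWWGG, where W is A or T, with no mismatch allowed. That exact pattern was found in neither stretch, and 1.47% of all stretches held one. The letters ctttaaaagg, which follow the first GATAA of the Nppa stretch, come near the pattern and were not counted. An Srf element of looser form was therefore not looked for. The letters TATAAA, the TATA box, occurred once in each printed stretch, from 9 bases before the Nppa start and 31 bases before the Nppb start (12.4% of all). A stretch of Nppc and a stretch of Furin also held TATAAA. The motifs searched did not overlap each other in either printed stretch. These are matches of letters in a short window and were not tested as binding sites.

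Nppa, which encodes atrial natriuretic peptide, was the member that passed the test. Its log2 signal was 14.42, 14.69 and 14.53 on the labelled transgenic arrays and 12.69, 12.07 and 12.29 on the non-transgenic arrays. The lowest labelled transgenic value lay 1.73 above the highest non-transgenic one. Nppa thus rose 4.58-fold, from 12.35 ± 0.32 to 14.55 ± 0.13 (SD, n = 3), a log2 change of 2.19 ± 0.17 (SE) with a 95% interval from 1.78 to 2.61 and adjusted p = 0.0257 (limma). It ranked 13th by size of rise and 8th by p among all probe sets tested. In whole tissue, more RNA per cell and more cells of a type cannot be told apart.

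Nppb, which encodes brain natriuretic peptide, was at 12.35, 13.54 and 13.80 on the labelled transgenic arrays and 11.03, 11.51 and 11.40 on the others. The groups did not overlap, but labelled transgenic array 1 lay more than 1 log2 unit below the other 2. The change was 1.92 ± 0.38 (SE), a 3.77-fold difference with a 95% interval from 0.99 to 2.84, and it did not pass (adjusted p = 0.107, limma). Without labelled transgenic array 1 the change was 2.36 and passed (adjusted p = 0.0394), and over the alternatives the adjusted p ran from 0.0365 to 0.264. Nppc, the C-type peptide, was between 2.11 and 2.17 on all 6 arrays, below the filter and in the lowest part of the scale, with a group difference of 0.01.

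Whether the cardiac ligands changed unequally was asked within each array. The log2 signal of Nppa minus that of Nppb was 2.07, 1.14 and 0.73 on the labelled transgenic arrays and 1.66, 0.56 and 0.89 on the others. The values overlapped, and the group difference of 0.28 had a 2-sided exact permutation p of 0.6, where 3 against 3 arrays allow no p below 0.1. Its sign turned with the fluidics station as a block (-0.35) and without labelled transgenic array 1 (-0.10). An unequal change of Nppa and Nppb was therefore not detectable with these arrays.

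**Figure D1:**
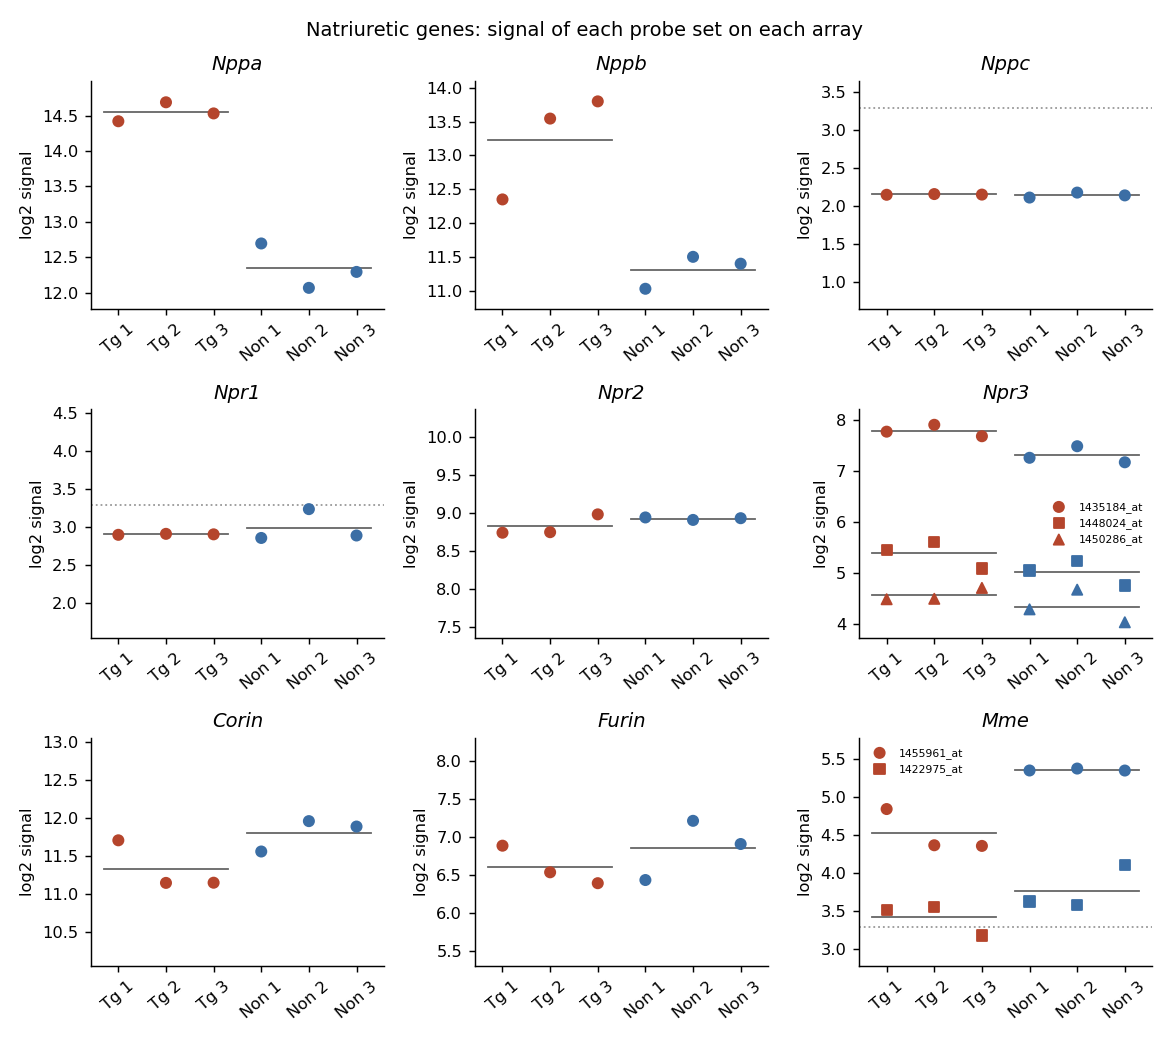
The log2 signal of every natriuretic probe set (y axis) on each array (x axis; Tg, labelled transgenic; Non, non-transgenic), with horizontal bars for the group means of 3 arrays and a dotted line at the brightness filter where it falls within the panel. Panels differ in their y range. Nppa and Nppb lie higher on all 3 labelled transgenic arrays, the brighter Mme probe set lies lower, and Nppc and Npr1 lie below the filter.

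The receptors showed smaller differences, none of which passed. Npr3 encodes the clearance receptor, which takes up natriuretic peptides and has no cyclase, and is a marker of endocardium. Its brightest probe set was at 7.77, 7.91 and 7.68 on the labelled transgenic arrays and 7.26, 7.49 and 7.17 on the others. The groups did not overlap, and the change was 0.48 ± 0.11 (SE), or 1.4-fold, with a 95% interval from 0.22 to 0.75 and adjusted p = 0.13 (limma). The other 2 Npr3 probe sets pointed the same way, at 0.37 ± 0.18 and 0.23 ± 0.17 (SE), but their groups overlapped and adjusted p was 0.369 and 0.558.

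The group difference of Npr3 was not the same among arrays of low and of high Xist level. Among the Xist-low arrays, 1 labelled transgenic and 2 non-transgenic, the 3 probe sets were higher in the labelled transgenic array by 0.69, 0.71 and 0.33. Among the Xist-high arrays, 2 labelled transgenic and 1 non-transgenic, the same differences were 0.24, 0.03 and -0.08. This split was added after the data were seen, has 1 array in an arm and carries no test. The endothelial and endocardial marker list, Npr3 left out, had all 13 genes above the filter, with 0 called, 1 lower at an unadjusted p under 0.05, 7 above 0 and a summed signal from log2 14.71 to 14.72 on labelled transgenic arrays and from 14.76 to 15.00 on the others. Most of that sum came from the 1 lower gene, Fabp4, a fatty acid carrier, at 14.30 against 14.55, and the list's median change was 0.03. Of all probe sets tested, 6.98% were lower at an unadjusted p under 0.05 and 52.5% were above 0.

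Npr2 encodes the guanylyl cyclase receptor of C-type natriuretic peptide. It was at 8.75, 8.75 and 8.99 on the labelled transgenic arrays and 8.95, 8.91 and 8.94 on the others. The groups overlapped, and the change of -0.10 ± 0.09 (SE) had a 95% interval from -0.32 to 0.11 (adjusted p = 0.607, limma). Npr1 encodes the guanylyl cyclase receptor of atrial and brain natriuretic peptide. Its single probe set was between 2.85 and 2.91 on 5 arrays and at 3.23 on non-transgenic array 2, below the filter on all 6, so a change in this receptor's RNA could not be measured. The log2 signal of Npr3 minus that of Npr1 averaged 4.89 ± 0.11 against 4.32 ± 0.08 (SD, n = 3), without overlap, a difference of 0.57 at p = 0.1 by the 2-sided exact permutation test, the smallest it can give. Of that difference 0.48 was the change of Npr3 itself, and Npr1 was not measured above the filter.

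Both prohormone proteases had negative changes that did not pass. Corin, the transmembrane serine protease of myocytes that cuts the atrial peptide's prohormone, was at 11.71, 11.15 and 11.15 on the labelled transgenic arrays and 11.56, 11.96 and 11.89 on the others. Labelled transgenic array 1 lay within the range of the non-transgenic arrays. The change was -0.47 ± 0.19 (SE), with a 95% interval from -0.93 to -0.01 and adjusted p = 0.298 (limma), and blocking on the fluidics station gave -0.23. On arrays 2 and 3 of the labelled transgenic group Corin lay below every non-transgenic value.

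Furin, the convertase that cuts the prohormones of brain and C-type natriuretic peptide among many other proteins, was at 6.89, 6.54 and 6.39 against 6.44, 7.21 and 6.91. The groups overlapped widely, the change was -0.25 ± 0.22 (SE) with adjusted p = 0.636 (limma), and its sign turned, to 0.17, with the station as a block. Corin minus Furin averaged 4.73 ± 0.11 on labelled transgenic arrays and 4.95 ± 0.19 on the others (SD, n = 3, 2-sided exact permutation p = 0.3).

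Mme encodes neprilysin, a membrane enzyme that degrades natriuretic and other small peptides. Its brighter probe set was at 4.84, 4.36 and 4.35 on the labelled transgenic arrays and 5.34, 5.37 and 5.34 on the others. The non-transgenic values spanned 0.03 and all lay above the labelled transgenic ones. The change was -0.84 ± 0.14 (SE), a 1.78-fold difference with a 95% interval from -1.18 to -0.49, and it did not pass (adjusted p = 0.078, limma). Without labelled transgenic array 1 it was -0.996 and passed (adjusted p = 0.0394), and over the alternatives the adjusted p ran from 0.0394 to 0.248. The dimmer probe set was at 3.51, 3.55 and 3.17 against 3.62, 3.57 and 4.11, near the filter. Its groups were separated by 0.02, and its change was -0.35 ± 0.18 (SE, adjusted p = 0.388).

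**Figure D2:**
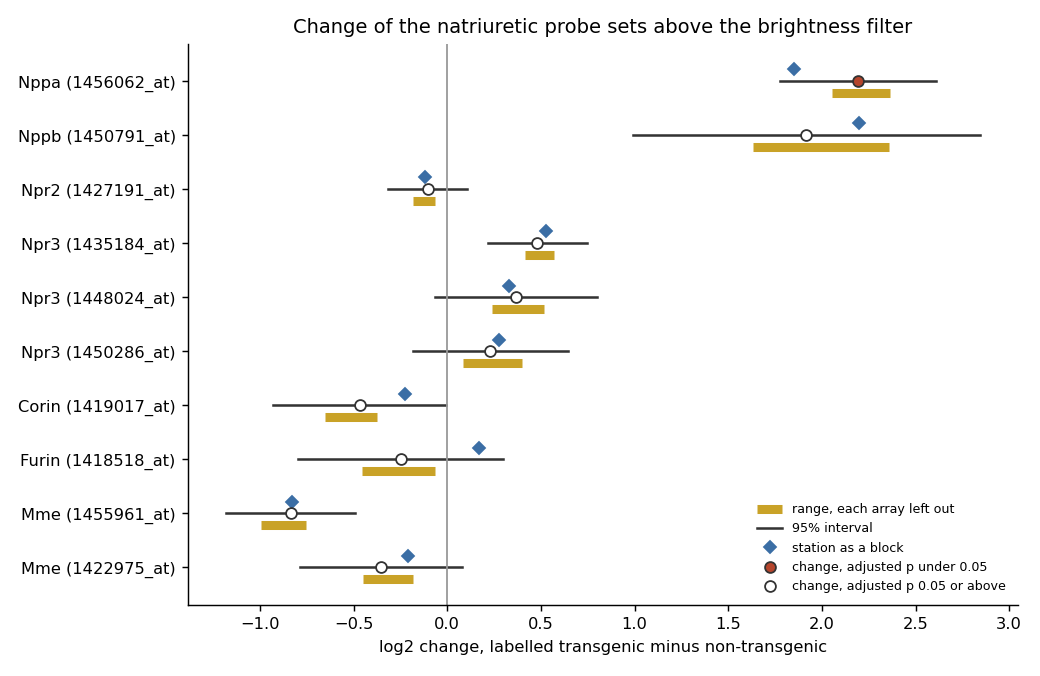
The log2 change of the 10 natriuretic probe sets above the filter (x axis, labelled transgenic minus non-transgenic), with the 95% interval of the limma fit, the change with the fluidics station as a block, and the range when each array is left out. Nppa, at 2.19, is the filled point; the changes of Furin with and without the station lie on opposite sides of 0.

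In all, 1 of the 10 natriuretic probe sets tested was called, Nppa, against 0.218% of all probe sets. At an unadjusted p under 0.05 there were 3 higher and 2 lower, 5 in all, where 9.41% and 6.98% of all probe sets were, 16.4% in all. The groups did not overlap for 3 higher and 2 lower probe sets, again 5 in all, where 13.2% and 9.78% of all probe sets did not overlap, 23% in all. The change was above 0 for 5 of the 10, and for 52.5% of all. The genes had been proposed with earlier results of these arrays known, so these shares describe the set and are not a test of it. Labelled transgenic array 1 was the one of its group nearest the non-transgenic mean in 6 of the 10 probe sets, Nppa, Nppb, Corin, Furin, the brighter Mme and the dimmest Npr3. It was the nearest in 37.4% of all probe sets tested. Of the 5 natriuretic probe sets at an unadjusted p under 0.05 it was the nearest in 4, and in 45.9% of all 3689 such probe sets.

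The call of Nppa rested on the arrays and the design. With the fluidics station as a block its change was 1.85 and did not pass (adjusted p = 0.0706), which equals the comparison within station 2, where a single non-transgenic array stood for its group. With the Xist level as a term it was 2.29 (adjusted p = 0.0777). Among Xist-high arrays alone the difference was 2.41 and among Xist-low arrays 2.19, and for Nppb these were 1.57 and 2.32. Leaving out labelled transgenic array 2 or 3 or non-transgenic array 2 or 3 also ended the call, at changes of 2.12, 2.20, 2.05 and 2.16 and adjusted p of 0.139, 0.132, 0.0916 and 0.125. The order of scanning followed the groups, and these cannot be told apart.

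Since Nppa is far more abundant in atria than in ventricles, markers of both chambers were read beside it. Of the 14 atrial genes read, Nppa left out, 4 lay below the filter in both groups. These were Myl7 (atrial myosin light chain), Sln (sarcolipin), Bmp10 and Mybphl, singled out here after their values were seen, and they lay between 2.29 and 2.54 on every array, near the bottom of the scale. The atrial light chain Myl4 was at 4.72 against 4.84. Other atrial genes above the filter differed in both directions. Lower were the potassium channel genes Kcnj3, at 8.38 against 9.20, Kcnj5, at 8.66 against 8.74, and Kcna5, at 8.63 against 8.88, and Stard10, at 7.67 against 7.95. The change of Kcna5 turned to 0.57 with the station as a block. Higher, beside Clu, were Dkk3, at 5.39 against 4.70, Hamp, at 4.30 against 3.44, Nr2f2, at 6.30 against 6.23, and Nr2f1, at 4.28 against 4.26. Apart from Clu, the groups of these higher genes overlapped. The mean of Hamp rested on labelled transgenic array 3, with values of 3.79, 3.62 and 5.50 against 3.09, 3.44 and 3.80. Of the 10 atrial genes above the filter 0 were called, 5 were above 0 and the median change was -0.03, beside 0.01 for all probe sets tested. At an unadjusted p under 0.05, 2 were higher and 1 lower, beside 9.41% and 6.98% of all probe sets tested. The groups did not overlap for 1 higher and 1 lower, beside 13.2% and 9.78% of all. The summed signal of all 14 atrial genes read ran from log2 14.10 to 14.19 on labelled transgenic arrays and from 13.65 to 13.81 on the others. Most of it came from Clu, clusterin, which many cell types express, at 14.02 against 13.54. All 8 ventricular genes lay above the filter, with 0 called, 3 above 0, 2 lower at an unadjusted p under 0.05 and a median change of -0.23. Of all probe sets tested 6.98% were lower at that threshold, and 9.78% were lower without overlap. The groups did not overlap for 4 of the ventricular genes, all lower. These were Kcnd2 at -0.83 ± 0.10, Mpped2 at -0.76 ± 0.15, Kcnj2 at -0.44 ± 0.27 and Fhl2 at -0.18 ± 0.08 (SE, adjusted p from 0.0588 to 0.477, limma). Kcnj2 passed the filter through non-transgenic array 1, at 4.16, and lay from 2.91 to 3.24, below the filter, on the rest. The ventricular light chains Myl2 and Myl3, near the top of the scale, were at 15.56 against 15.55 and at 15.86 in both groups. The part of the chamber markers in the Nppa result was not tested.

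**Figure D3:**
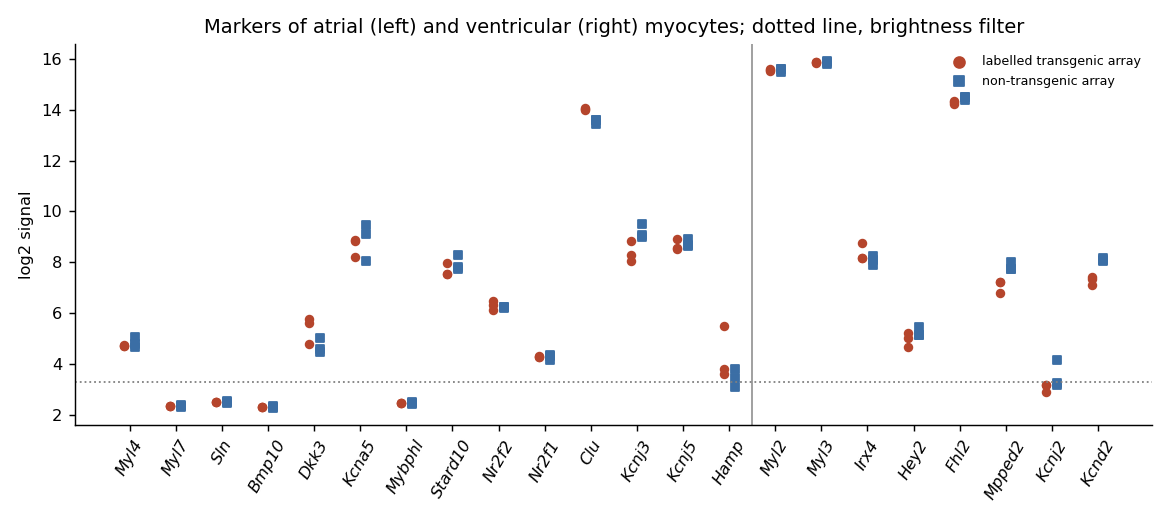
The log2 signal (y axis) of each marker of atrial and ventricular myocytes (x axis) on the 3 labelled transgenic and 3 non-transgenic arrays, with a dotted line at the brightness filter. Myl7, Sln, Bmp10 and Mybphl lie below the filter on all 6 arrays, and Myl2 and Myl3 lie above 15.

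Marker lists of other cell types differed between the groups. Beside their counts, 0.218% of all probe sets tested were called and 52.5% were above 0. At an unadjusted p under 0.05, 9.41% of all were higher and 6.98% lower. Of 12 fibroblast markers, all above the filter, 0 were called, 11 were above 0 and 8 had an unadjusted p under 0.05, and their summed signal ran from log2 15.50 to 15.65 against 15.00 to 15.32. Of 11 macrophage markers 0 were called, 10 were above 0 and 8 had an unadjusted p under 0.05, and their summed signal ran from 12.88 to 13.13 against 12.49 to 12.60. Of 10 smooth muscle and pericyte markers 0 were called, 2 were above 0 and 3 were lower at an unadjusted p under 0.05. The 12 cardiomyocyte markers had a median change of -0.06, with 4 above 0, 0 called and 0 at an unadjusted p under 0.05. Their groups did not overlap for 2 higher and 5 lower, beside 13.2% and 9.78% of all probe sets tested. Summed, these 12 markers ran from log2 18.62 to 18.64 on labelled transgenic arrays and from 18.66 to 18.69 on the others. The part of these shifts, and of the actin difference, in the natriuretic values was not tested. The 4 adipocyte genes read were below the filter, as were 5 of the 6 lung epithelial ones. Above the filter lay 4 of the 7 genes read for lymphocytes and neutrophils and 2 of the 7 for skeletal muscle. For Schwann cells and neurons it was 3 of 5, and for erythroid cells 2 of 3. Of these tested genes 0 were called by limma and 0 had an unadjusted p under 0.05, and the rest were not tested.

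Downstream of the receptors, cyclic GMP acts through its kinase and is removed by phosphodiesterases. Of 18 genes of this group above the filter, out of 21, 0 were called (limma) and 8 were above 0. Their median change was -0.03, beside 0.01 for all probe sets tested, and it was 0.04 with the station as a block. At an unadjusted p under 0.05, 0 were higher and 3 lower, beside 9.41% and 6.98% of all probe sets tested. The groups did not overlap for 0 higher and 4 lower, beside 13.2% and 9.78% of all. The largest difference in the list was that of Rgs2, a regulator that switches off Gq signalling and is a target of the cyclic GMP kinase. It was at 8.85, 8.02 and 7.31 against 9.53, 9.91 and 10.06, without overlap, at -1.77 ± 0.38 (SE, adjusted p = 0.12). Pde1c, a calcium-activated phosphodiesterase of cyclic nucleotides, was at 7.83, 7.53 and 7.62 against 8.40, 8.45 and 8.74, also without overlap, at -0.87 ± 0.13 (SE, adjusted p = 0.0695). The kinase Prkg1 was at 0.53 ± 0.23 (SE, adjusted p = 0.322) with overlap, and at 0.97 when blocked on the station.

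Other peptide-processing and peptide-degrading enzymes showed little difference. Of the 18 genes listed 16 were read and 9 lay above the filter, with 0 called, 6 above 0 and a median change of 0.01. At an unadjusted p under 0.05, 1 was higher, beside 9.41% of all probe sets tested. Ide, the insulin-degrading enzyme, which also cuts natriuretic peptides, was at 0.24 ± 0.08 (SE, adjusted p = 0.237), without overlap. Cpe, a carboxypeptidase of prohormones, was at 0.22 ± 0.12 (SE, adjusted p = 0.404), and at 0.37 when blocked on the station. Pcsk6, the convertase that activates corin, was at 8.99 against 8.98.

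Transcription factors that act on the Nppa and Nppb promoters differed in both directions, and none passed. Of 24 above the filter, out of 25, 0 were called, 11 were above 0 and the median change was -0.03. At an unadjusted p under 0.05, 4 were higher and 5 lower, beside 9.41% and 6.98% of all probe sets tested. The groups did not overlap for 5 higher and 5 lower, beside 13.2% and 9.78% of all. Egr1, an immediate early factor, was at 7.41, 7.44 and 7.61 against 6.78, 5.22 and 5.87, at 1.53 ± 0.37 (SE, adjusted p = 0.148), and at 0.70 with the station as a block, since non-transgenic array 1 was its highest control. Tbx5, a T-box factor of the heart, was at -0.68 ± 0.22 (SE, adjusted p = 0.223), and at -0.38 with the station as a block. Gata4, whose core letters occur in both printed stretches, was at 9.16 against 9.19, and Nkx2-5 at 9.45 against 9.49.

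The genes that flank the Nppb and Nppa pair on chromosome 4 had changes between 0.01 and 0.51, none of which passed. Next to Nppb, 2510039O18Rik was at 0.01 ± 0.15 and beyond it Plod1, a collagen hydroxylase, at 0.03 ± 0.12 and Mfn2, a mitochondrial fusion protein, at 0.03 ± 0.08 (SE). Next to Nppa, Clcn6, a chloride and proton exchanger, was at 0.51 ± 0.19 (SE, adjusted p = 0.268), and at 0.27 when blocked on the station. Agtrap, a protein that binds the type 1 angiotensin receptor, lay 3 genes from Nppa and was at 0.10 ± 0.12 (SE, adjusted p = 0.712). In the wider list of 12 neighbours 8 lay above the filter, 0 were called and 5 were above 0. The median change was 0.03, or -0.05 once the station was a block. At an unadjusted p under 0.05, 1 was higher and 1 lower, beside 9.41% and 6.98% of all probe sets tested. The groups did not overlap for 1 higher and 1 lower, beside 13.2% and 9.78% of all. The largest change in this list was that of Fbxo44, a ubiquitin ligase subunit, at -0.80 ± 0.14 (SE, adjusted p = 0.0861, limma).

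Genes that often move with Nppa and Nppb in loaded ventricle were read from a list of 16, of which 12 were read and all lay above the filter. Here 2 were called higher, 0 were called lower and 12 of 12 were above 0, where 0.178%, 0.04% and 52.5% of all probe sets tested were. The median change was 0.92, or 0.83 with the station as a block, beside 0.01 for all probe sets tested. The list was drawn up with earlier results of these arrays known, so its direction is not independent evidence. Myh7, the slow heavy chain of myosin, typical of fetal ventricle in mice, rose by 4.65 ± 0.30 (SE, adjusted p = 0.023), and Ccn2, a matricellular growth factor, by 1.60 ± 0.09 (adjusted p = 0.0167, limma).

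**Figure D4:**
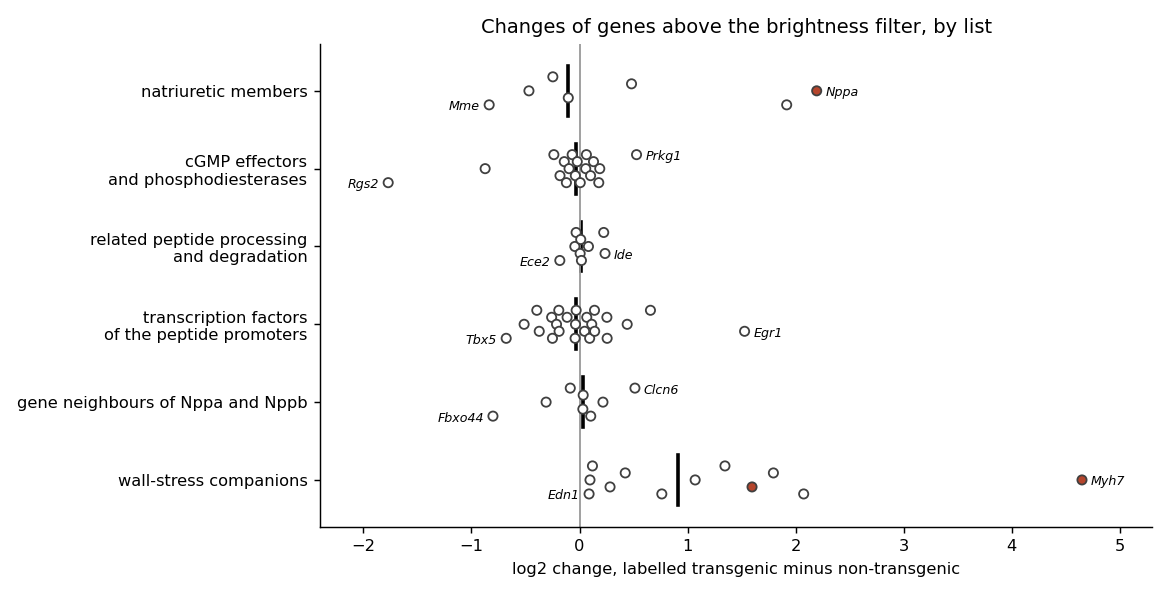
The log2 change (x axis, labelled transgenic minus non-transgenic) of each gene above the brightness filter, by its brightest probe set, in the natriuretic genes and 5 related lists (y axis), with a vertical bar at each list's median; filled points passed at an adjusted p under 0.05. The genes at either end of each list are named, and Nppa, Myh7 and Ccn2 are the filled points.

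The genes whose array profile was nearest to each ligand were found by the root mean square difference of log2 signals over the 6 arrays, each gene centred on its own mean, among 11015 other genes. For Nppa the nearest was Shisa4, at 0.15, followed by Itgbl1 at 0.34, Ccn2 at 0.38, the apoptosis inhibitor Bcl2 at 0.43 and Egr1 at 0.44. Shisa4 was at 6.40, 6.60 and 6.65 against 4.50, 3.93 and 3.91, and like Nppa had its highest non-transgenic value on array 1. For Nppb the nearest were Ankrd23, a stretch-responsive protein of the sarcomere, at 0.27, Hspa1l, a heat shock protein of the HSP70 family, at 0.28, Pdzd3 at 0.28, Itgbl1 at 0.33 and Cnksr1 at 0.33. These 5 genes had their lowest labelled transgenic value on array 1, as Nppb did. Such shared high or low arrays follow in part from choosing the genes by likeness over the same 6 arrays. Nppb ranked 20th among the genes nearest to Nppa, and Nppa 38th among those nearest to Nppb, at a distance of 0.53. Itgbl1 was on both lists. The profiles share arrays and depend on the size of the group difference, so they describe likeness in these 6 arrays alone.

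**Figure D5:**
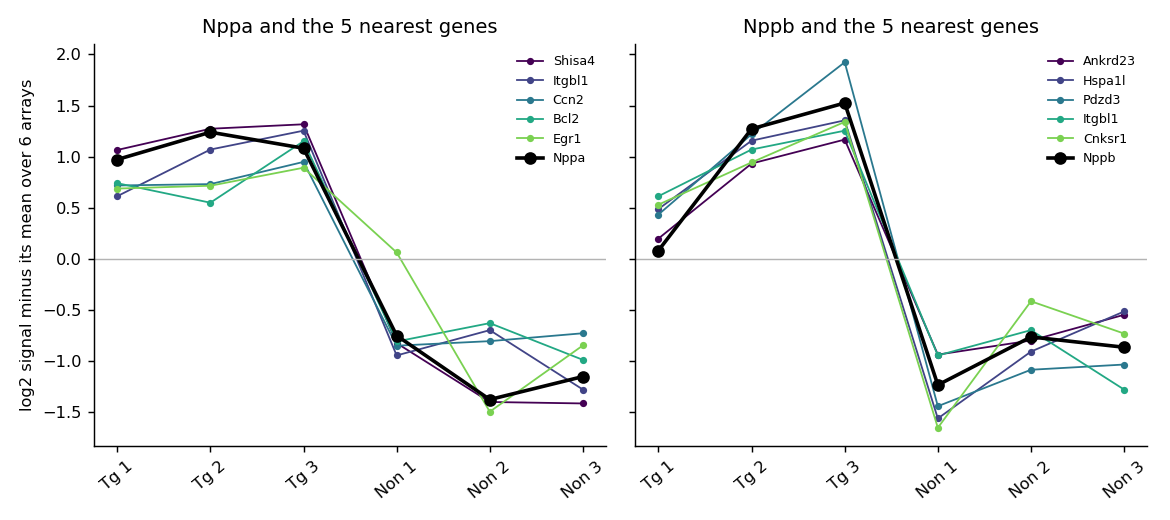
Log2 signal minus its mean over the 6 arrays (y axis) on each array (x axis; Tg, labelled transgenic; Non, non-transgenic) for Nppa (left) and Nppb (right) in black and the 5 genes with the nearest profile in colour; lines join the arrays of 1 gene and show no order in time. Nppb and its nearest genes are lowest of the labelled transgenic group on array 1.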

How the data were processed

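RNA from heart tissue was hybridised to Mouse430_2 arrays, 3 per group, with groups and replicate numbers from the sample titles. The authors deposited log2 values, 1 per probe set and array, made with GCRMA per the submitters' processing notes (version not given in the sources used here). They were used as deposited. Per the file headers the other files are instrument records, read for station, scan order and typed name.

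Of 45101 probe sets, 64 controls were dropped. Names came from the 2016 platform annotation, in which 34945 probe sets had 1 gene, 932 several and 9160 none, and 34741 matched RefSeq gene IDs (GRCm38.p6). Probe sets with a mean above log2 3.29 were kept (22518) and compared by limma (version 3.58.1, R 4.3.3; lmFit and eBayes, 2-sided, Benjamini-Hochberg over all 22518, threshold 0.05), after testing on simulated data. A gene in a list is its brightest probe set, and the 9 genes were left out of the other lists. Listed genes with no probe set read were not analysed here.

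The members, lists and rules for named genes (list genes that passed, or the 2 with the largest change; the 5 nearest profiles) were chosen with earlier results of these data known. Prkg1, Pcsk6, Gata4, Nkx2-5 and the flanking genes were named after their values were seen. Same-numbered arrays did not deviate together (r from -0.17 to -0.01), so numbers were not taken as pairs. No 2 arrays shared more than 0.0177% of values. Alternatives covered filter, normalization, variance model, blocks, probe sets per gene and each array left out.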

Additional observations from a re-analysis of the deposited data

How the results depend on the processing

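Of the 10 natriuretic probe sets tested, 1 (Nppa) was called in the chosen fit and 49 of all probe sets were. Without a brightness filter these counts were 0 and 15, and with the brightest 25% alone 2 (Nppa and Nppb) and 416. With a trended variance all calls numbered 108. With replicate number as a block (replicate block) they were 0 and 0 in limma (3324 at an unadjusted p under 0.05, 5 of them natriuretic), with the fluidics station as a block 0 and 2, and with a term for Xist level 0 and 0 (3126 and 5 unadjusted). Leaving out 1 array gave 0 to 3 natriuretic calls and 0 to 75 calls in all. The count of 3 (Nppa, Nppb and Mme) and of 75 came without labelled transgenic array 1, without non-transgenic array 1 they were 1 and 5, and the other 4 gave 0 and 0 (2532 to 3430 unadjusted). Nppa changed by 2.19 under the replicate block (adjusted p = 0.149), and the within-array differences kept their values. Over all alternatives Nppa ran from 1.85 to 2.41 (adjusted p from 0.00457 to 0.149 where tested). Nppa minus Nppb turned to -0.35 with the station as a block and ran from -0.10 to 0.59 with 1 array left out. Npr3 minus Npr1 ran from 0.48 to 0.62 and Corin minus Furin from -0.40 to -0.13, with no turn of sign. Furin turned to 0.17 with the station as a block, and the dimmest Npr3 probe set to -0.0766 among Xist-high arrays alone, an alternative added after seeing the data. A wider or narrower filter changes how many probe sets are adjusted for. It also changes the p-values themselves, since limma moderates each variance over the probe sets fitted. The unadjusted p of Nppa (limma) was 1.1e-05 with the filter and 4.9e-05 without it. The causes of the differences between settings were not tested. The mean of kept probe sets could not be run for Npr3 minus Npr1, as Npr1 had none.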
